A study of Homo sapiens with 4 samples.

Results

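The H3K27me3 peaks described here lie in the imprinted region of the short arm of human chromosome 11, band 11p15, in HaCaT cells cultured for 12 hours with AKBA or with the solvent DMSO. They are all peaks of both lists that overlap the hg19 interval from 1950000 to 3000000 of chromosome 11 by at least 1 bp. The interval was taken in 2 segments. The H19–ASCL2 segment, up to 2400000, is the one given for H19, IGF2, INS and ASCL2, and the KCNQ1–PHLDA2 segment, beyond it, is the one given for KCNQ1, CDKN1C, SLC22A18 and PHLDA2. The interval held 56 of the 22045 peaks of the series, 32 of the 13155 AKBA peaks and 24 of the 8890 DMSO peaks.

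HaCaT cells are immortalised human keratinocytes, the cells that build the epidermis. Each condition has 1 library of H3K27me3 and 1 of input DNA, and a peak list exists for each of the 2 H3K27me3 libraries. AKBA is commonly the short name of an acetylated boswellic acid, which the labels do not spell out, and they name no dose. Because each condition is a single H3K27me3 library, differences could not be set against the spread between replicates, and p-values are absent. The lists carry no read numbers, so the depth is unknown, and a stretch with no peak may carry the mark below the authors' threshold.

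H3K27me3 is histone H3 trimethylated at lysine 27, a mark laid down by Polycomb repressive complexes and associated with silenced genes. Band 11p15 is a textbook cluster of imprinted genes, which are expressed mainly from the copy of a single parent. H19 makes a long noncoding RNA, IGF2 a fetal growth factor, INS insulin, and ASCL2 a basic helix-loop-helix transcription factor of trophoblast and intestinal stem cells. KCNQ1 makes a potassium channel and also hosts KCNQ1OT1, a long antisense RNA of the paternal copy. In the mouse that RNA is known to silence its neighbours on the same chromosome together with Polycomb complexes. CDKN1C makes the cell cycle inhibitor p57, SLC22A18 a membrane transporter, and PHLDA2 a restraint on placental growth. Peak lists do not separate the parental copies, so imprinting itself was not measured here.

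In the RefSeq gene table of assembly GRCh38.p14, which is not the build of the peaks, all 8 genes were found, 7 by their symbol and SLC22A18 as an older name of SLC67A1. Their order along the chromosome was H19, IGF2, INS, ASCL2, KCNQ1, CDKN1C, SLC22A18 and PHLDA2. The table listed TH between INS and ASCL2, CD81, TSSC4 and TRPM5 between ASCL2 and KCNQ1, and KCNQ1OT1 and KCNQ1DN between KCNQ1 and CDKN1C. This order of entries does not place KCNQ1OT1 outside KCNQ1, its host. An annotation and a genome sequence of hg19 were not used here. No peak was therefore assigned to a gene, a promoter, an exon or an intron, no sequence is shown, and gene names below name segments.

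Covered bases were frequent in the locus in both conditions, and they were concentrated in a few places. AKBA peaks covered 43.9 kb of the 1.05 Mb, or 4.18%, and DMSO peaks covered 26.1 kb, or 2.49%. On the rest of chromosome 11, between its first and last peak, the covered share was 0.788% with AKBA and 0.428% with DMSO. Over all chromosomes it was 0.501% with AKBA and 0.259% with DMSO. When all chromosomes were laid out in 2868 windows of 1.05 Mb, the locus held more covered bases than 99.2% of the windows in the AKBA list and than 99.4% in the DMSO list. The median window had 1.60 kb of AKBA peaks and 0.696 kb of DMSO peaks. One domain of 16.7 kb, described below, held 33.4% of the AKBA bases and 43.1% of the DMSO bases of the locus, and 4 of the 21 bins of 50 kb along the locus had no peak in either list. Each segment also stood high among windows of its own length, above 98.4% of them for H19–ASCL2 and 98.5% for KCNQ1–PHLDA2 in the AKBA list, and above 99.0% and 98.4% in the DMSO list.

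**Figure D1:**
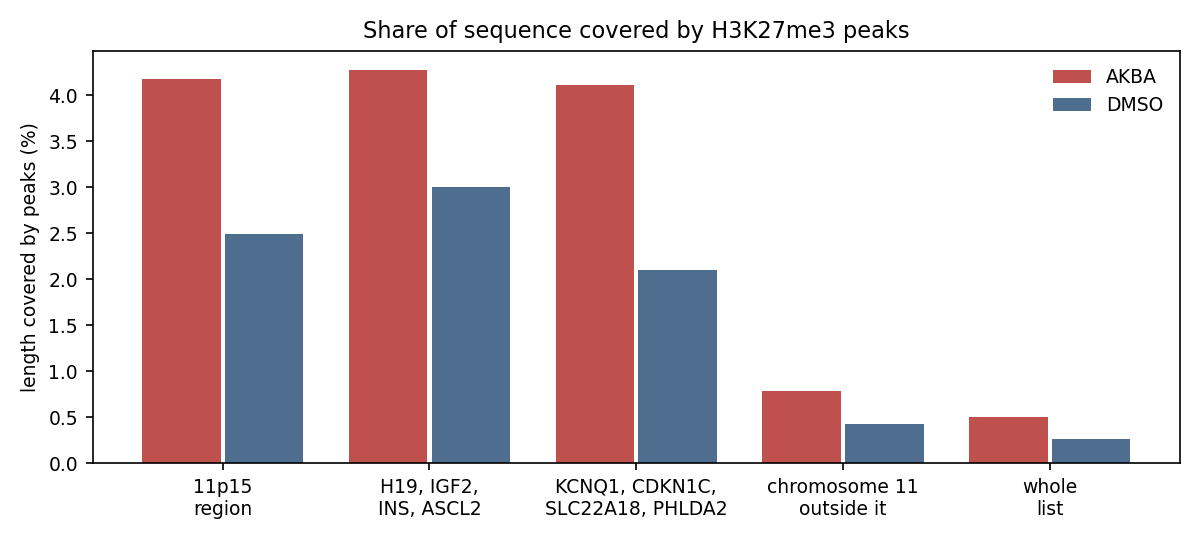
Percentage of sequence covered by H3K27me3 peaks (vertical axis) in the 11p15 region, in its 2 segments, on chromosome 11 outside it and over the whole list, for AKBA (left bar of each pair) and DMSO (right bar), with 1 library each and therefore no error bars. Coverage of the region was 4.18% with AKBA and 2.49% with DMSO, above the rest of chromosome 11 in both lists.

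Most single peaks of the locus were of ordinary width. Their median width was 664 bp in the AKBA list, against 742 bp over that whole list, and 492 bp in the DMSO list, against 552.5 bp over that list. Widths ran from 225 to 7234 bp with AKBA and from 160 to 8382 bp with DMSO. The widest 10% of the peaks of their own list included 4 of the 32 AKBA peaks and 4 of the 24 DMSO peaks. The mean width was above that of the list, at 1371 bp with AKBA, against 1114 bp over the AKBA list, and 1088 bp with DMSO, against 851 bp over the DMSO list. Peaks numbered 3.05 per 100 kb with AKBA and 2.29 with DMSO, against 0.449 and 0.304 per 100 kb over the whole AKBA and DMSO lists.

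The AKBA list held more peaks and more covered bases in the locus, by ratios no greater than over the genome. Its 32 peaks against 24 gave a ratio of 1.33, and its exact 95% binomial interval, for counting error alone, ran from 0.761 to 2.37. The ratio over the whole lists was 1.48. The ratio of covered bases was 1.68 in the locus and 1.94 over the whole lists, and 40.9% of the 1698 windows with bases in both lists had a ratio below that of the locus. The order of the peak numbers depends on how far down the AKBA list is read. With the 8890 highest-scoring peaks of each list, the locus held 21 AKBA and 24 DMSO peaks, a ratio of 0.875, while AKBA peaks still covered 38.1 kb against 26.1 kb.

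The segments gave different ratios. In the H19–ASCL2 segment, 11 AKBA peaks covered 19.2 kb and 7 DMSO peaks covered 13.5 kb, a base ratio of 1.42. The domain of 16.7 kb, described below, held 14.7 kb (AKBA) and 11.2 kb (DMSO) of these bases, a ratio of 1.30. Outside it the segment had 4.56 kb of AKBA and 2.25 kb of DMSO bases, so its lower ratio came mainly from this domain. In the KCNQ1–PHLDA2 segment, 21 AKBA peaks covered 24.6 kb and 17 DMSO peaks covered 12.6 kb, a base ratio of 1.95. The peak numbers ran the other way, with a ratio of 1.57 in H19–ASCL2 and 1.24 in KCNQ1–PHLDA2. Whether these ratios differ beyond the variation between cultures was not tested. With a score of at least 3.00 the base ratios were 1.27 in H19–ASCL2 and 2.55 in KCNQ1–PHLDA2, but the peak ratios changed their order. They were then 0.833 in H19–ASCL2, from 5 AKBA and 6 DMSO peaks, and 2.40 in KCNQ1–PHLDA2, from 12 AKBA and 5 DMSO peaks. Equal peak numbers from each list gave 7 AKBA and 7 DMSO peaks in H19–ASCL2, and 14 AKBA and 17 DMSO peaks, a ratio of 0.824, in KCNQ1–PHLDA2. Bases inside peaks of both lists came to 11.6 kb in the H19–ASCL2 segment, 55.1% of all its marked bases. Of these common bases, only 1409 bp lay outside the domain of 16.7 kb. In the KCNQ1–PHLDA2 segment the common bases came to 6.05 kb, or 19.4%, against 28.0% over the genome.

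**Figure D2:**
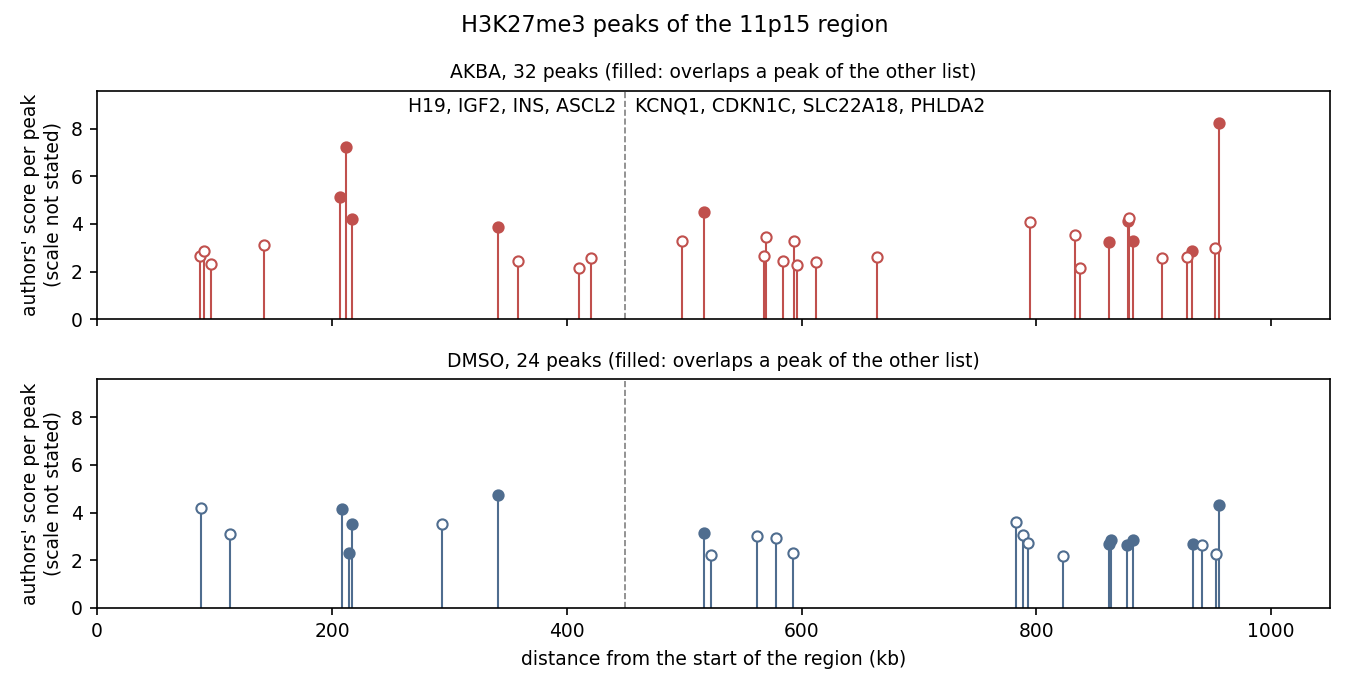
Each H3K27me3 peak of the region at its centre (horizontal axis, kb from the start of the region) with the authors' score (vertical axis, scale not stated) for AKBA (upper panel, 32 peaks) and DMSO (lower panel, 24 peaks), 1 library each. Filled points overlap a peak of the other list, open points do not, and the dashed line divides the segments. Both lists had peaks near 200 kb and between 850 and 950 kb, and neither had a peak between 700 and 750 kb.

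A single domain carried most of the marked sequence of the H19–ASCL2 segment in both conditions. When peaks of both lists were joined across gaps of up to 5 kb, this domain ran over 16.7 kb from 2154242 to 2170933, and it was the only one of the 29 domains of the locus to reach 10 kb with this joining distance. Joined across gaps of up to 10 kb, 6 domains of the locus reached that span, and this one was second to a run of 34.6 kb in the other segment. It ranked 144th by span among the 11947 domains of the genome. AKBA peaks covered 14.7 kb of it and DMSO peaks 11.2 kb. These were 76.3% of all AKBA bases and 83.3% of all DMSO bases in the segment.

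The domain was cut differently in the 2 lists. The AKBA list had peaks of 5625 bp from 2154242 to 2159866, 1805 bp from 2160898 to 2162702, and 7234 bp from 2163700 to 2170933. The DMSO list had peaks of 8382 bp from 2154243 to 2162624, 357 bp from 2164422 to 2164778, and 2505 bp from 2165555 to 2168059. The left edges of the domain lay 1 bp apart in the lists, whereas the right edge of the AKBA peaks lay 2874 bp beyond that of the DMSO peaks.

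On its left side the DMSO list was the more continuous, since its 8382 bp peak spanned the AKBA break of 1031 bp. That DMSO peak was wider than all but 0.112% of its list. On the right side a single AKBA peak contained both smaller DMSO peaks and the DMSO break of 776 bp, which is narrower than 857 bp, the smallest gap between any AKBA neighbours. The middle AKBA peak had a score of 7.23, exceeded by 2.14% of AKBA peaks, and its neighbours had 5.14 and 4.21. The 8382 bp DMSO peak had a score of 4.16, exceeded by 15.7% of DMSO peaks. The score is the authors' own value on a scale that is not stated, so these ranks place a peak within its list and show no change.

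The second place where peaks of the lists overlapped in this segment was a single peak in each list with nearly the same edges. It ran from 2291032 to 2292460 in the AKBA list, 1429 bp, and from 2291052 to 2292504 in the DMSO list, 1453 bp. In their own lists, 22.2% of AKBA peaks and 15.3% of DMSO peaks were wider than these. The peaks shared 1409 bp, or 98.6% of the AKBA peak and 97.0% of the DMSO peak, the closest match of the locus by the share of both peaks. Its score was 3.87 in the AKBA list. In the DMSO list it was 4.72, the highest DMSO score of the locus.

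Outside these places the segment held short peaks, none with an overlap, since these places held every overlapping peak of the segment. The 7 other AKBA peaks measured 237 to 629 bp with scores of 2.15 to 3.12, and none overlapped a DMSO peak. The 3 other DMSO peaks measured 160, 339 and 299 bp with scores of 4.17, 3.10 and 3.52, and none overlapped an AKBA peak. Peaks without an overlap were 63.6% of the AKBA and 42.9% of the DMSO peaks of the segment. Over the whole lists these shares were 67.8% (AKBA) and 45.5% (DMSO). The DMSO peak of 160 bp, from 2038609 to 2038768, lay 913 bp from the nearest AKBA peak and had the narrowest width its list contains. With 2 AKBA peaks it formed 1 of the 3 domains of the segment with peaks of both lists, from 2037242 to 2040886. The longest stretch of the segment with no peak of either list was its first 87.2 kb, from 1950001 to 2037241. It continued a gap of 288 kb that began before the region.

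**Figure D3:**
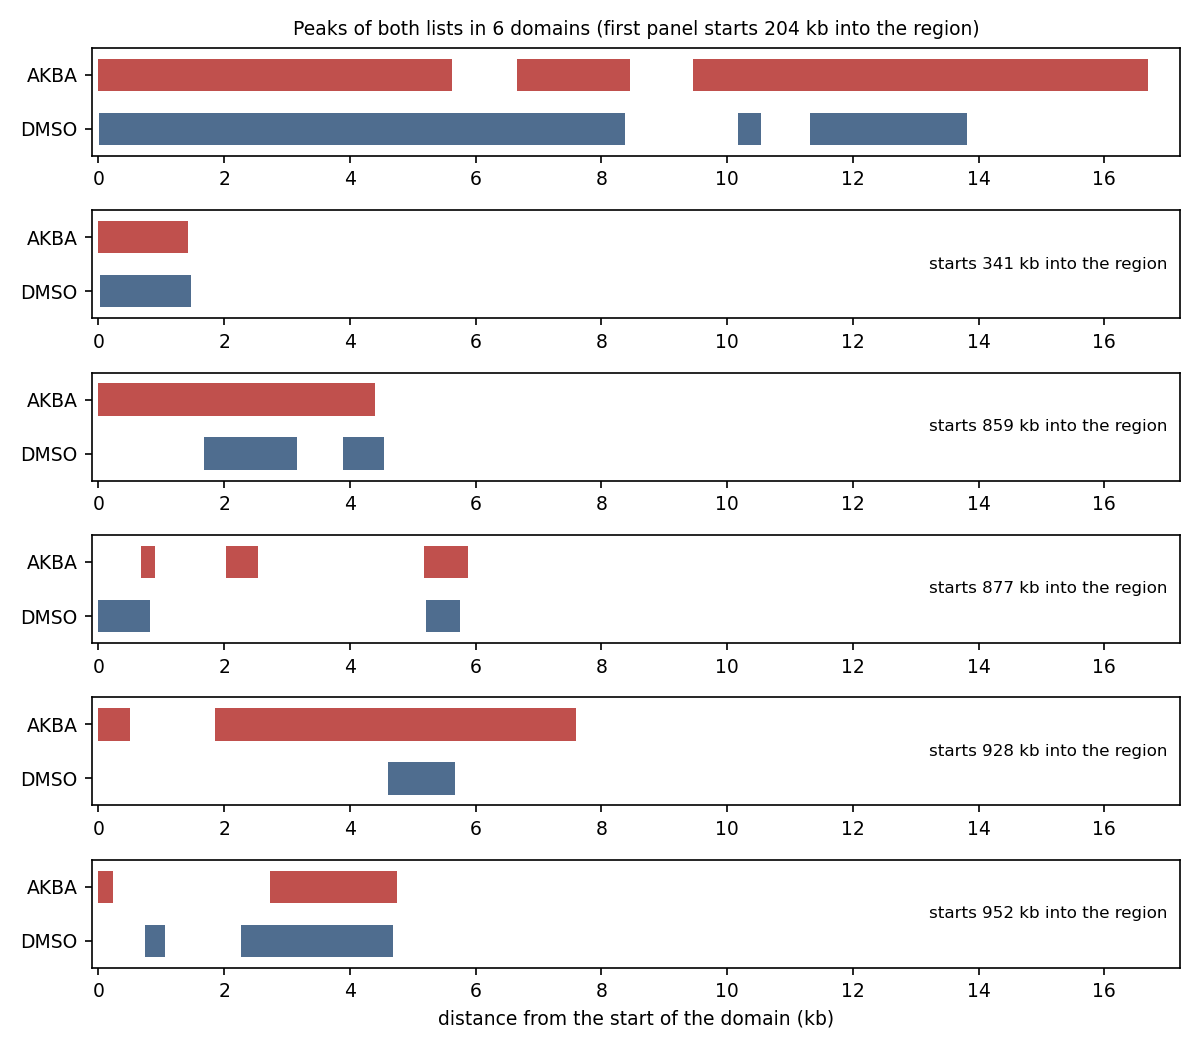
Peaks in 6 domains marked in both lists, AKBA above DMSO in each panel, by distance from the start of the domain (kb): the widest domain of the H19–ASCL2 segment and its other domain with closely matching peaks, then the last 4 such domains of the KCNQ1–PHLDA2 segment. The edges nearly coincide in the second panel, whereas in the fifth the AKBA peaks cover 6.24 kb and the DMSO peak 1.08 kb.

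In the KCNQ1–PHLDA2 segment the marked bases were spread over 19 domains, of which 7 held peaks of both lists, 7 only AKBA peaks and 5 only DMSO peaks. Over the genome, 35.7% of the domains held peaks of both lists, 46.6% only AKBA peaks and 17.7% only DMSO peaks. No domain of the segment reached 10 kb with joining across 5 kb. Joined across 10 kb, the peaks from 2511865 to 2546456 formed the widest run, of 34.6 kb, with 3.33 kb inside AKBA peaks and 1.05 kb inside DMSO peaks. With the shorter join the widest domain, from 2878128 to 2885722, spanned 7.59 kb, and there AKBA peaks covered 6.24 kb and a DMSO peak covered 1.08 kb. Its main AKBA peak, of 5749 bp from 2879974 to 2885722, was the widest AKBA peak of the segment, and the DMSO peak of 1078 bp from 2882726 to 2883803 lay wholly inside it. This AKBA peak was wider than all but 1.20% of its list, yet 54.6% of the list scored higher than its 2.88. A common score minimum of 3.00 removed the peaks of both lists here, and with it every peak of the bin of 50 kb from 2850001.

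A similar pattern was seen from 2809431 to 2813975. An AKBA peak of 4392 bp with a score of 3.23 overlapped DMSO peaks of 1473 and 658 bp, whose scores were 2.67 and 2.84. AKBA peaks covered 4.39 kb of this domain and DMSO peaks 2.13 kb. The break between the DMSO peaks was 729 bp, again under the smallest AKBA gap of 857 bp.

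The last marked place of the segment had high-ranking peaks in both lists. The AKBA peak from 2905078 to 2907084, of 2007 bp, had a score of 8.23, the highest of the locus and exceeded by 0.851% of AKBA peaks. The DMSO peak from 2904612 to 2907026, of 2415 bp, had a score of 4.33, the highest DMSO score of the segment and exceeded by 13.0% of DMSO peaks. They shared 1949 bp, or 97.1% of the AKBA peak and 80.7% of the DMSO peak. The DMSO peak began 466 bp earlier, and its right end lay 58 bp short of that of the AKBA peak. Each list had a further short peak to the left of it, of 232 bp with AKBA and 317 bp with DMSO, and these lay 514 bp apart without overlap.

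Near its start the segment held another common place. An AKBA peak of 1015 bp from 2466846 to 2467860, with a score of 4.52, overlapped a DMSO peak of 454 bp from 2466757 to 2467210, with a score of 3.13, by 365 bp. From 2826947 to 2832826 the lists overlapped in short peaks. An AKBA peak of 225 bp met a DMSO peak of 817 bp, and an AKBA peak of 699 bp contained all of a DMSO peak of 534 bp. Between them an AKBA peak of 497 bp from 2828980 to 2829476, with a score of 4.26, had no DMSO counterpart.

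The greatest DMSO excess of any domain lay in the same segment. From 2737722 to 2745077 DMSO peaks covered 2.47 kb and an AKBA peak 0.782 kb, with no overlap between them. The DMSO peak of 1955 bp from 2737722 to 2739676 was the widest DMSO peak of the locus without an AKBA overlap, at a distance of 4619 bp. A DMSO peak of 202 bp from 2732479 to 2732680, with a score of 3.62, lay on the same side, 11615 bp from the nearest AKBA peak. Just before these peaks came the longest stretch of the whole locus with no peak in either list, 118 kb from 2614860 to 2732478. The segment ended in a second such stretch, 92.9 kb from 2907085 to 3000000, and the next peak of either list began 315 kb after the last peak of the locus.

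Along the locus, the bins of 50 kb followed the genome in their direction. AKBA peaks covered more bases in 13 of the 17 bins with a peak and DMSO peaks in 4. The AKBA share was 76.5%, against a background of 76.9% over the 8791 such bins of all chromosomes, so the count shows nothing particular to the locus. In bins of 150 kb it was 7 of 7, against 80.0% over the genome. With a score of at least 3.00 it was 7 of 12 bins of 50 kb, or 58.3%, against 75.8%, and with peaks of at least 1 kb it was 6 of 9, or 66.7%, against 85.0%. The greatest AKBA excess was in the bin from 2850001 to 2900000, with 6.64 kb against 1.51 kb, all in peaks scoring below 3.00. It was followed by the bin from 2150001 to 2200000, with 14.7 kb against 11.2 kb, and the bin from 2750001 to 2800000, with 2.60 kb against 0.244 kb, close to the bin from 2800001 to 2850000, with 5.81 kb against 3.48 kb. In the bin from 2750001 the difference of 2.35 kb (AKBA minus DMSO) became 5.55 kb with peaks merged within 5 kb and 1.32 kb with equal peak numbers. The DMSO list exceeded the AKBA list most in the bin from 2700001 to 2750000, with 0.782 kb for AKBA and 2.68 kb for DMSO, and with 0.782 and 5.71 kb when peaks were merged within 5 kb. The bin from 2900001 to 2950000 had 2.24 kb for AKBA and 2.73 kb for DMSO, and the bin from 2200001 to 2250000 had 0 kb for AKBA and 0.299 kb for DMSO. The order in the bin from 2900001 turned with peaks merged within 5 kb, at 4.74 kb for AKBA and 3.94 kb for DMSO. In the last bin with more DMSO bases, from 2250001 to 2300000, the lists covered 1.43 kb (AKBA) and 1.45 kb (DMSO).

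**Figure D4:**
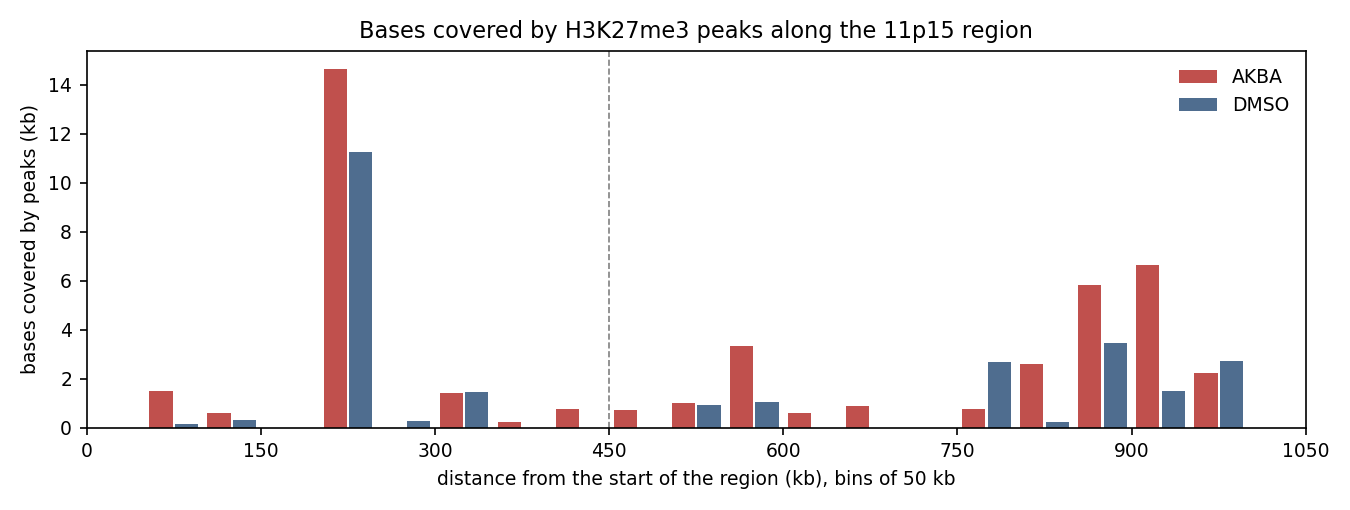
Kilobases covered by H3K27me3 peaks in bins of 50 kb (vertical axis) against distance from the start of the region (kb), AKBA left of DMSO in each bin, 1 library each; the dashed line divides the segments. The tallest bin of both lists had 14.7 kb with AKBA and 11.2 kb with DMSO, and AKBA peaks covered more in 13 of 17 bins with a peak.

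The peaks of the locus coincided between the lists about as often as peaks elsewhere. Of the AKBA peaks, 10 of 32 overlapped a DMSO peak by at least 1 bp (31.2%, exact 95% binomial interval 16.1 to 50.01%), against a background of 32.2% over the whole AKBA list. Of the DMSO peaks, 11 of 24 overlapped an AKBA peak (45.8%, interval 25.6 to 67.2%), against 54.5% over the whole DMSO list. Both intervals cover counting error only and include the background. By segment, 4 of 11 AKBA and 4 of 7 DMSO peaks overlapped in H19–ASCL2, and 6 of 21 AKBA and 7 of 17 DMSO peaks in KCNQ1–PHLDA2. With a reciprocal overlap of at least 50%, 4 peaks of each list were shared. They were 12.5% of the AKBA and 16.7% of the DMSO peaks, against 14.0% and 20.8% over the whole AKBA and DMSO lists. With both lists limited to peaks of at least 1 kb, 7 of 11 AKBA peaks overlapped a DMSO peak, or 63.6%. Over the whole AKBA list, limited in the same way, the share was 39.1%. The 7 AKBA peaks include the 3 of the 16.7 kb domain, so they are not 7 separate places. No interval was computed for this share, and whether it differs from the background was not tested. Of the DMSO peaks of that width, 6 of 7 overlapped an AKBA peak of that width, or 85.7%, against 82.8% over the DMSO list.

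Overlapping peaks were the wider ones in both lists. The median width was 1906 bp for the 10 overlapping AKBA peaks and 546 bp for the 22 others, and 1078 bp for the 11 overlapping DMSO peaks and 317 bp for the 13 others. The whole lists showed the same order, with medians of 1566 and 558 bp (AKBA) and 847 and 352 bp (DMSO). A wide peak has more room to meet another, but whether this gave the difference was not tested. The median score of overlapping AKBA peaks was 4.16, against 2.63 for the others. In the DMSO list it was 2.84 for overlapping peaks and 2.92 for the others, whereas over the whole DMSO list it was 3.35 and 2.72. Among the 6 pairs that overlapped one to one, the AKBA peak was the wider in 3 and the DMSO peak in 3.

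Most peaks without a counterpart lay more than 5 kb from the other list, as over the whole lists. Of the 22 AKBA peaks without a DMSO overlap, 8 lay within 5 kb of a DMSO peak and 14 farther away, up to 78.3 kb. The near share was 36.4%, against a background of 27.3% over the AKBA list. Of the 13 DMSO peaks that met no AKBA peak, 6 lay within 5 kb of an AKBA peak and 7 farther away, up to 47.1 kb, a near share of 46.2% against 43.8% over the DMSO list. The closest miss was 67 bp, between an AKBA peak from 2543139 to 2544031 and a DMSO peak from 2542801 to 2543071. Domains with peaks of both lists were 10 of the 29 in the locus, against 12 that had only AKBA peaks and 7 that had only DMSO peaks. These shares of 34.5%, 41.4% and 24.1% stood beside 35.7%, 46.6% and 17.7% of all domains of the genome.

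**Figure D5:**
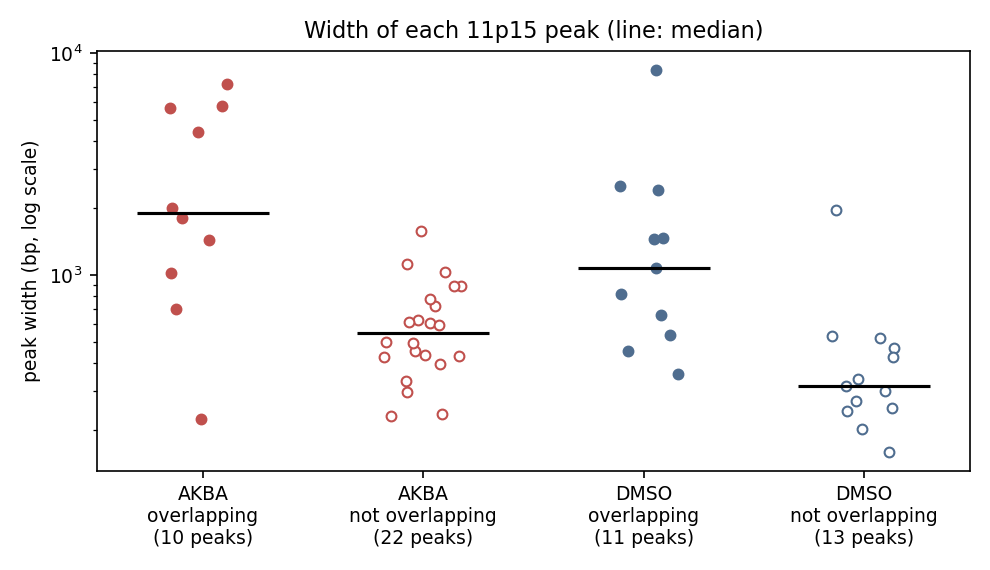
Width of every peak of the region (vertical axis, bp, log scale) by list and by overlap with the other list; each point is 1 peak, horizontal jitter has no meaning and lines are medians. Overlapping peaks had medians of 1906 bp (AKBA) and 1078 bp (DMSO), and the other peaks medians of 546 bp (AKBA) and 317 bp (DMSO).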

How the data were processed

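H3K27me3 chromatin immunoprecipitation sequencing of HaCaT cells gave 1 peak list per condition. BWA, STAR and MACS2 are named, without versions, in the submitters' processing notes, with hg19 as the build. The sources used here do not give their roles, the use of the input DNA, the threshold or the filters. The deposited lists have no header and give 1 score per peak, which the authors computed on a scale that is not stated. Scores were used to rank and filter peaks, and the common minimum of 3.00 assumes 1 scale for both lists. The narrowest peak and smallest gap were 214 and 857 bp in the AKBA list and 160 and 641 bp in the DMSO list, and such limits can change peak numbers and widths.

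Peaks were taken by overlap with the interval, and covered bases were clipped to it, in Python 3.11.15 (scipy 1.17.1, pandas 2.3.3, numpy 2.4.6). Overlaps were tested on simulated data and checked against bedtools 2.31.1. Intervals are exact Clopper-Pearson intervals, treat peaks as independent and leave out variation between cultures. Coordinates are 1-based hg19 positions. Regions named by rule were domains of at least 10 kb, the 3 widest and 3 highest-scoring peaks of each list in each segment, the 3 greatest bin differences in each direction and the longest peak-free stretches. Other named peaks and domains were chosen after their values were seen. The region and the tests were chosen with earlier results of these data known. Alternatives were a score minimum, equal peak numbers, merging, a minimum width, matched width and gap limits, other edges, overlaps, joins and bins. Removal of the narrowest peaks was added after seeing the data.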

Additional observations from a re-analysis of the deposited data

How the results depend on the processing

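Of 78 recomputed summary values, 67 were not reversed and stayed within the counting interval or within 1.5 times the reported value. They include the ratio of 1.00 given next, which favours neither list. They also include a peak ratio of 2.40 in KCNQ1–PHLDA2 at a score of at least 3.00, against 1.24 as reported. The counting interval of that 1.24 ran from 0.621 to 2.49. Such wide intervals were easily met, so the number 67 is a weak check. Equal peak numbers turned the ratio of peak numbers to 0.875 in the locus and 0.824 in the KCNQ1–PHLDA2 segment, since they drop AKBA peaks alone, and gave 1.00 in the H19–ASCL2 segment. A score of at least 3.00 turned that ratio to 0.833 in the H19–ASCL2 segment, with 5 AKBA and 6 DMSO peaks, and left 17 domains, 5 with peaks of both lists. With both lists limited to peaks of at least 1 kb, 63.6% (7 of 11) of AKBA and 85.7% (6 of 7) of DMSO peaks overlapped. With 50% reciprocal overlap the shares were 12.5% (AKBA) and 16.7% (DMSO). AKBA peaks covered more in 100% of bins of 150 kb with a peak, and in 58.3% of bins of 50 kb at a score of at least 3.00 and 66.7% at a width of at least 1 kb. Joining across 10 kb made a KCNQ1–PHLDA2 domain of 34.6 kb the widest, with a base ratio of 3.15. The ratio of covered bases in the locus ran from 1.46 with equal peak numbers to 1.71 for peaks of at least 1 kb. Among 6 bins followed, AKBA minus DMSO turned from 2900001, to 0.804 kb with peaks merged within 5 kb (and was -0.176 kb at a score of at least 3.00). It moved from 2700001 to -4.92 kb when merged, and from 2750001 to 5.55 kb when merged and 1.32 kb with equal peak numbers. Taking peaks wholly inside the region changed no value, since no peak crosses an edge of the region or of a segment. These unchanged values count among the 67. No paired analysis was possible because each condition has 1 library. Unknown depth limits every comparison.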
